A study of Mus musculus with 15 samples.

Results

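The Reg genes encode small secreted C-type lectin proteins. The 6 members studied here, Reg1, Reg2, Reg3a, Reg3b, Reg3d and Reg3g, were taken by name from the table of gene counts, in which they were 6 of 48709 genes. The rule of choice used no measured value, but earlier results of these data were known when it was made. In the pancreas these proteins are made mainly by acinar cells, the exocrine cells that secrete digestive enzymes, and their name, regenerating, comes from their rise in regenerating islets. They are known as genes that injury and inflammation of the pancreas switch on, through cytokines such as IL-6 and IL-22 that act through STAT3. Reg3b and Reg3g are also known as antibacterial lectins of the intestinal epithelium.

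RNA was measured in islets of 15 untreated NOD/ShiLtJ females, an inbred strain that develops autoimmune diabetes without further intervention, with 3 mice at each of 5 ages from 4 to 12 weeks, spaced by 2 weeks. Each library was made from polyadenylated RNA of 1 mouse, and mice are named here by age and replicate number. Islets were isolated from the collagenase-digested pancreas, and acinar transcripts were present in every library. The series asks how the islet transcriptome changes as leukocytes enter the islets (insulitis), and for each member the question was whether its transcripts changed with age and whether they did so apart from the acinar transcript Cpa1, which encodes the digestive enzyme carboxypeptidase A1. In bulk RNA, fewer cells of a type and less RNA per cell cannot be told apart.

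The total was 25407492 to 41616275 counts per mouse, so that 3 counts, taken as the floor, corresponded to 0.0754 to 0.128 CPM, the counts scaled to the library total. The endocrine genes that define islets were abundant throughout, at a summed 11100 to 23400 CPM over 12 genes. The 21 leukocyte genes measured rose from a summed 49.2 to 239 CPM at 4 weeks to 2020 to 2390 CPM at 12 weeks. The 20 acinar genes, by contrast, ran from 1930 to 16400 CPM among the 3 mice of 4 weeks and from 4940 to 21500 CPM among those of 12 weeks. Among the other cell types, 7 duct genes summed to 127 to 240 CPM. The 15 intestinal genes summed to 13.2 to 29.4 CPM in 13 mice, but to 78.3 CPM in 6-week mouse 2 and 418 CPM in 12-week mouse 1, and these 2 mice were the ones with no intestinal gene at 0. In the other 13 mice most of the sum was Olfm4 (363 to 781 counts per mouse), while Fabp2, Alpi and Sis had 0 to 2 counts.

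The 6 members lay side by side on chromosome 6 of the GRCm38 (mm10) assembly, with no other annotated gene between the first and the last. In order along the chromosome they were Reg3b (chr6:78370657-78373466, plus strand), Reg3d (chr6:78375874-78378865, minus), Reg3a (chr6:78380709-78383827, plus), Reg2 (chr6:78395623-78408106, plus), Reg1 (chr6:78422711-78428667, plus) and Reg3g (chr6:78466269-78468872, minus). All are protein-coding. Cpa1 (chr6:30639218-30645363) is on the same chromosome at a distance. Reg1 and Reg2 were the most alike in coding sequence, with 82.6% identical bases, and Reg2 and Reg3g the least, with 62.8%. Of the 15 pairs, only Reg3b and Reg3g had any stretch of 31 bases in common, with 1 whole transcript taken per gene. There it was 0.664% of the stretches of Reg3b. Exact stretches by which reads of 1 member could be assigned to another were thus few in these transcripts.

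The sequence before the start site is shown for the 4 members whose windows hold no annotated exon, so that the sequence can be set beside their values. Those of Reg1 and Reg3b overlap annotated exons by 53 and 50 bases and are not printed. Windows are the 250 bases before the start site in RefSeq (GRCm38.p6), 5′ to 3′ on the strand of the gene. Capitals mark CACCTG and TTCCCA on either strand. An E-box and a TC box, here TTCCCA, together form the site of the acinar factor PTF1. CACCTG is a form of the E-box, and other forms were not searched for.

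Reg2, chr6:78404905-78405154, plus strand: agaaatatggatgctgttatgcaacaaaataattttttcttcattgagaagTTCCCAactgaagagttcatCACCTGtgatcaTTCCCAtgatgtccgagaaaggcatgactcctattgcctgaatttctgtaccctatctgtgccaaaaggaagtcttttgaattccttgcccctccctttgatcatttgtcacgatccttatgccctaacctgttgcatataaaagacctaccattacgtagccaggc

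Reg3a, chr6:78380459-78380708, plus strand: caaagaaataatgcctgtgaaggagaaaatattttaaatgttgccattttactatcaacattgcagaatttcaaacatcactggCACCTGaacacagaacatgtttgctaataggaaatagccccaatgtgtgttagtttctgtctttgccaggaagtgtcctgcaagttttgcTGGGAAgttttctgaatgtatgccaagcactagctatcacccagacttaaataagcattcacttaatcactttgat

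Reg3d, chr6:78378866-78379115, minus strand: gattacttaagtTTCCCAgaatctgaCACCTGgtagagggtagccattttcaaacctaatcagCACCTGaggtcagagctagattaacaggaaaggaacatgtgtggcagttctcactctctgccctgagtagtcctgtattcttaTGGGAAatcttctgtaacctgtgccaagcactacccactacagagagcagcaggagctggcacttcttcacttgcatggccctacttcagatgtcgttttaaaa

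Reg3g, chr6:78468875-78469124, minus strand: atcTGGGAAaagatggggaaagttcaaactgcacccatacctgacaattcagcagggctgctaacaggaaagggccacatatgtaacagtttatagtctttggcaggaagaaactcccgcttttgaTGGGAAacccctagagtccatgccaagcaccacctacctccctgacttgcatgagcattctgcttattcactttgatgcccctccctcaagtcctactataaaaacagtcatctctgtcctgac

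Both motifs were present, at any spacing, in the windows of Reg2, Reg3a and Reg3d, 3 of the 6 members, against 3.91% of 32851 windows of the genome. The E-box letters CACCTG were in 4 of 6 (17.2% of windows), the members without them being Reg1 and Reg3g. The TC box letters were in 5 of 6 (21.6% of windows), the member without it being Reg3b. The letters TTCNNNGAA, to which STAT factors can bind, were in Reg3b and Reg3d (7.02% of windows), and in Reg3d they overlapped a TC box. The TATA box letters TATAAA were in Reg1, Reg2, Reg3b and Reg3g (12.4% of windows). The letters TGCCAA, picked after the windows had been read, were in 6 of 6 (12.3% of windows). Because they were picked from these windows, that count is no evidence of enrichment. Reg1 and Reg3g, with the highest and the lowest correlation with Cpa1 in the values given next, both lacked CACCTG. Their windows were not searched for other forms of the E-box, so a lack of any E-box is not shown. Whether the motifs bear on those values was not tested. The motifs are matches of letters on both strands and not measured sites, and members of 1 family share ancestry, so they are not independent windows.

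Reg1 made up nearly all Reg RNA. Its share of the counts of the 6 genes was 84.4% in 10-week mouse 2 and 99.1% in 6-week mouse 2, the lowest and the highest of the 15 mice. On the length-corrected TPM scale the level of Reg1 was 297 ± 264 TPM (SD, n = 15 mice). Reg2 followed at 8.6 ± 12.5 TPM and Reg3d at 4.86 ± 4.74 TPM, both SD over 15 mice. Reg3b (2.88 ± 3 TPM), Reg3a (1.32 ± 1.83 TPM) and Reg3g (0.235 ± 0.197 TPM) were lower. Reg1 was above Reg2 in 15 of 15 mice, by 6.04 on the log2(TPM + 0.1) scale (exact sign-flip permutation test over mice, two-sided, p = 6.1e-05). Reg2 and Reg3d could not be ranked, with Reg2 higher in 9 of 15 mice (exact permutation p = 0.917). Reg3d was above Reg3b in 12 of 15 mice (exact permutation p = 0.00299), Reg3b above Reg3a in 13 (p = 0.000977, exact permutation) and Reg3a above Reg3g in 11 (p = 0.0148, exact permutation).

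None of the Reg genes was called as changed with age. In a joint test of the 5 ages (edgeR quasi-likelihood test, adjusted over all genes), 0 of 6 members passed an adjusted p of 0.05, whereas 56% of the 16554 genes tested did. At an unadjusted p under 0.05 the count was also 0 of 6, against 61.8% of genes. DESeq2 called 0 of 6 as well. The adjusted p was 0.768 for Reg1, 0.356 for Reg2, 0.36 for Reg3a, 0.263 for Reg3b, 0.805 for Reg3d and 0.263 for Reg3g. Cpa1 did not pass either, at an adjusted p of 0.648. The spread among mice of the same age was wide, as the values of each mouse show, and with it the intervals, so that these tests do not exclude changes of several fold.

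Reg1 had 1037, 8741 and 876 counts in mice 1, 2 and 3 of 4 weeks. It had 7043, 1297 and 1608 counts at 6 weeks, 3209, 1058 and 779 at 8 weeks and 4443, 6275 and 612 at 10 weeks. At 12 weeks the counts were 9711, 3589 and 2388. The age groups overlapped, and the mice with the most Reg1 were one of 4 weeks (mouse 2) and one of 12 weeks (mouse 1). Per library the level of Reg1 was 148 CPM (mean of 3) at 4 weeks and 170 CPM at 12 weeks, and the log2 fold change was 0.20 (SE 1.08, 95% interval -2.13 to 2.53, edgeR adjusted p = 0.892).

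Reg2, the nearest relative of Reg1 in the cluster, had 10, 86 and 3 counts in the mice of 4 weeks and 238, 0 and 41 in those of 6 weeks. It had 21, 43 and 8 counts at 8 weeks and 157, 744 and 5 at 10 weeks. At 12 weeks it had 51, 89 and 202. The highest and the 3 lowest mice thus included mice of 4, 6 and 10 weeks, and 10-week mice 2 and 3 were near the opposite ends of the range. The 0 of 6-week mouse 2 allows up to 3 counts. The log2 fold change of 12 against 4 weeks was 1.43 (SE 1.55, 95% interval -1.92 to 4.78, edgeR adjusted p = 0.455), and 3.91 without 4-week mouse 2.

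Reg3d, related to the islet neogenesis-associated protein INGAP of the hamster, had 8, 89 and 9 counts at 4 weeks and 168, 5 and 22 at 6 weeks. Its counts were 45, 20 and 6 at 8 weeks, 68, 152 and 9 at 10 weeks and 64, 52 and 37 at 12 weeks. The mice high for Reg1 at 4 and 6 weeks, mouse 2 and mouse 1 respectively, were also the high ones for Reg3d. The log2 fold change of 12 against 4 weeks was 0.19 (SE 1.24, edgeR adjusted p = 0.912).

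Reg3b, the pancreatitis-associated protein of the mouse, had 8, 47 and 8 counts at 4 weeks and 149, 3 and 55 at 6 weeks. Its counts at 8 weeks, 10, 8 and 11, were the most even of any age. They were 40, 160 and 7 at 10 weeks and 36, 53 and 63 at 12 weeks. The log2 fold change of 12 against 4 weeks was 0.94 (SE 1.13, edgeR adjusted p = 0.501).

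Reg3a had 0 to 88 counts and Reg3g 0 to 20 counts in a mouse, so their values are the least precise. Reg3a had 0, 26 and 4 counts at 4 weeks and 13, 3 and 10 at 12 weeks, with its maximum of 88 in 10-week mouse 2, and its log2 fold change was -0.53 (SE 1.46, edgeR adjusted p = 0.78). Reg3g had 4, 7 and 1 counts at 4 weeks, 2, 0 and 11 at 6 weeks and 2, 2 and 3 at 8 weeks. It had 8, 13 and 5 counts at 10 weeks and 20, 8 and 10 at 12 weeks. All 3 mice of 12 weeks were above all 3 of 4 weeks in raw counts of Reg3g, but not in CPM, and the log2 fold change was 1.36 (SE 0.874, 95% interval -0.53 to 3.25, edgeR adjusted p = 0.206).

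**Figure D1:**
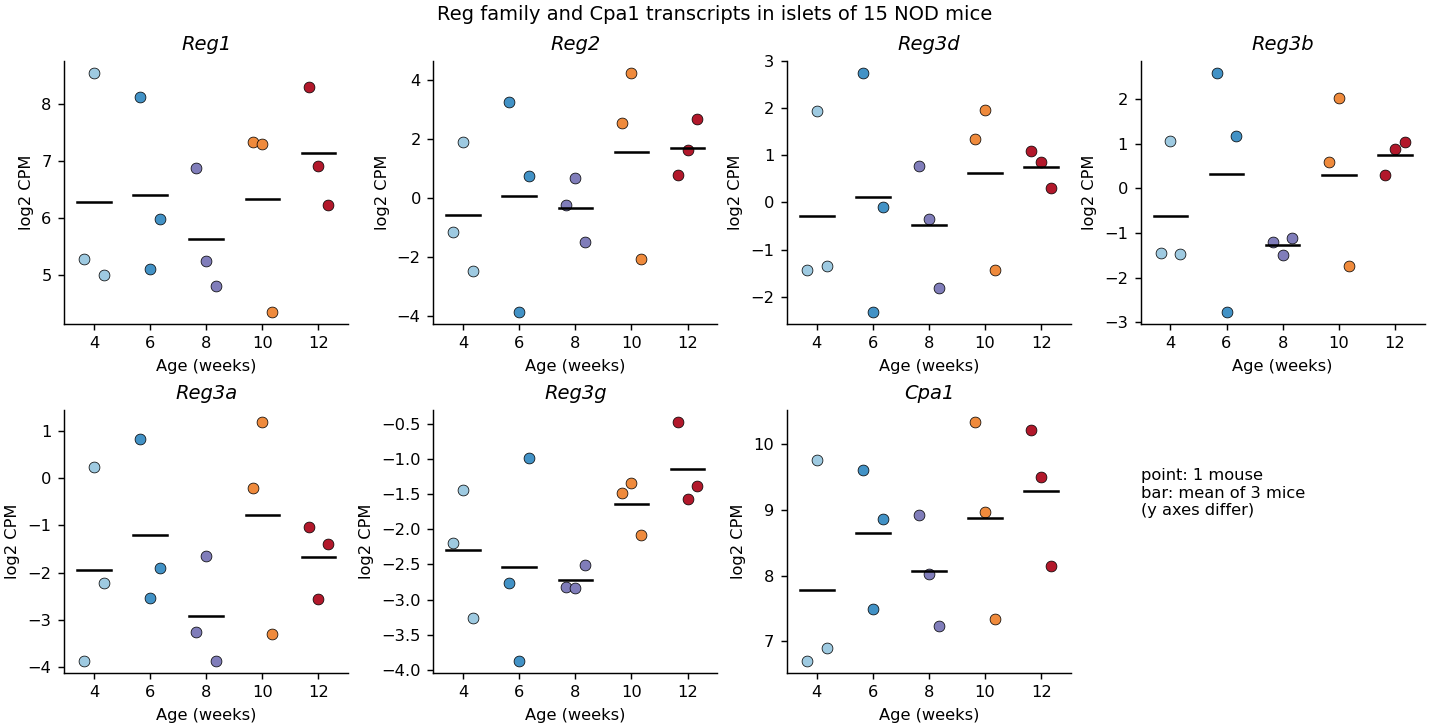
Level of the 6 Reg genes and of Cpa1 in each of 15 mice (log2 CPM, prior count of 2, y axes differ) against age in weeks, where a point is 1 mouse and a bar the mean of 3. Mice of the same age are spread over most of the range of each gene, as for Reg1 at 4 weeks (876 to 8741 counts), and the narrowest group is Reg3b at 8 weeks (8 to 11 counts) along with Reg3g at 8 weeks (2 to 3 counts).

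Between 4 and 12 weeks, 0 of 6 members were called (edgeR, 53.5% of all genes), 0 also at an unadjusted p under 0.05 (59.3% of genes) and 0 by DESeq2. The median log2 change of the members was 0.57, against -0.048 over all genes and 0.90 over the 20 acinar genes, of which 0 were called. Between 6 and 4 weeks the count was 0 of 6 (0.0906% of genes), with 0 at the unadjusted threshold (8.67% of genes). Between 8 and 6 weeks it was 0 of 6, as it was for all genes (0%), but Reg3b fell by 2.93 on the log2 scale at an unadjusted p (edgeR) of 0.0327, adjusted p = 0.243, where 18% of genes passed the unadjusted threshold. The mice of both ages overlapped, since Reg3b was lowest in 6-week mouse 2. Reg3b thereby met the threshold used in the study, a fold of at least 1.5 with an unadjusted p under 0.05, which 9.82% of genes met. The value depended on 6-week mouse 1, the highest, without which the log2 change was -1.64 (edgeR adjusted p = 0.529). With the acinar covariate it was -1.97 (edgeR adjusted p = 0.384). In both of these fits, and without any single 8-week mouse, Reg3b no longer met the unadjusted threshold. The same held with the mean of the leukocyte genes as a covariate (log2 change -2.4, edgeR unadjusted p = 0.164). The other settings kept Reg3b under that threshold, with an unadjusted p of 0.00657 in DESeq2 and 0.0233 in the edgeR exact test. Without 6-week mouse 2, the lowest, the log2 change was -3.52 (edgeR unadjusted p = 0.00471, adjusted p = 0.509). Without that mouse Reg3b also had an unadjusted p of 0.0399 in the joint edgeR test of the ages (adjusted p = 0.0727). No setting put Reg3b past an adjusted p of 0.05.

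Between 10 and 8 weeks all 6 log2 changes were above 0, from 0.89 for Reg1 to 3.37 for Reg3a, but 0 of 6 were called (16.8% of genes), with 0 at the unadjusted threshold (37.9% of genes). Other tests put members under the unadjusted threshold, with a fold above 1.5. In the edgeR exact test of both ages alone, which tested 4 members, these were Reg2 (unadjusted p = 0.0201) and Reg3b (unadjusted p = 0.0107), and in DESeq2 Reg3a (unadjusted p = 0.0281) and Reg3b (unadjusted p = 0.0219), none of them past an adjusted p of 0.05. The log2 change was 3.25 for Reg2 (SE 1.62, edgeR adjusted p = 0.159), 3.37 for Reg3a (SE 1.59, edgeR adjusted p = 0.138) and 2.45 for Reg3b (SE 1.22, edgeR adjusted p = 0.156). Without 10-week mouse 2, the highest for all 3, these log2 changes were 1.75, 2.05 and 1.25, and over all single mice left out they ran from 1.75 to 3.96 for Reg2, 2.05 to 5.53 for Reg3a and 1.25 to 2.97 for Reg3b. Reg3g was the 1 member whose mice did not overlap between these ages, being higher in 3 of 3 mice of 10 weeks (17.2% of genes were so), with a log2 change of 1.60 (edgeR adjusted p = 0.24). Between 12 and 10 weeks 0 of 6 were called, as for all genes (0%), and 0 of 6 passed without adjustment (7.52% of genes). DESeq2 called no member in any comparison of adjacent ages, though it gave Reg3g no adjusted p between 10 and 8 weeks.

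The mice of 10 and 12 weeks together were also set against those of 4 and 6 weeks, 6 against 6. There 0 of 6 members were called (63.8% of genes), 0 at an unadjusted p under 0.05 (67.3% of genes) and 0 by DESeq2. The log2 change was 0.02 for Reg1 (SE 0.761, edgeR adjusted p = 0.98) and 0.00 for Reg3d (SE 0.969, edgeR adjusted p = 0.999). The largest were 1.30 for Reg2 (SE 1.06, edgeR adjusted p = 0.3) and 1.04 for Reg3g (SE 0.625, edgeR adjusted p = 0.162). The result for Reg3g rested on 6-week mouse 3, which had the highest Reg3g of the early mice with 11 counts. Without it, Reg3g rose by 2.09 on the log2 scale (edgeR adjusted p = 0.0114) and passed the joint test of the ages (edgeR adjusted p = 0.0396). The mice with 10 or more counts of Reg3g were then all of 10 and 12 weeks, and Reg3g did not pass the filter on low counts when 12-week mouse 1 was left out, so that it entered this test only through the group in which it was high. These values are given as a dependence on single mice and not as support for a change.

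From mouse to mouse the Reg transcripts moved with Cpa1. Over the 15 mice the correlation of log2 CPM was closest for Reg1 (Pearson r = 0.902, permutation p = 2e-05, Spearman rho = 0.9, permutation p = 1e-05, the smallest that 100000 permutations can give). It was next for Reg3d (r = 0.863 and rho = 0.854, each with a permutation p = 0.00011). Reg2 (r = 0.719, permutation p = 0.00311, rho = 0.736, p = 0.0025), Reg3b (r = 0.706, permutation p = 0.0046, rho = 0.618, p = 0.0164) and Reg3a (r = 0.678, permutation p = 0.00659, rho = 0.722, p = 0.00351) were looser. Reg3g was the loosest (r = 0.59, permutation p = 0.022, rho = 0.529, p = 0.0457). All tests were two-sided, 6 correlations were computed and these p-values are unadjusted. Without the 2 mice farthest from the median of Cpa1, 4-week mice 1 and 3, r ran from 0.565 for Reg3g to 0.914 for Reg1.

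The relation was also present within ages. After each age mean was subtracted, r was 0.938 for Reg1 (exact permutation within ages, p = 0.000386) and 0.863 for Reg3d (exact permutation p = 0.0009). It was 0.702 for Reg3a (exact permutation p = 0.0383), 0.669 for Reg2 (exact permutation p = 0.0388) and 0.656 for Reg3b (exact permutation p = 0.0374). For Reg3g it was 0.523 (exact permutation p = 0.1).

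**Figure D2:**
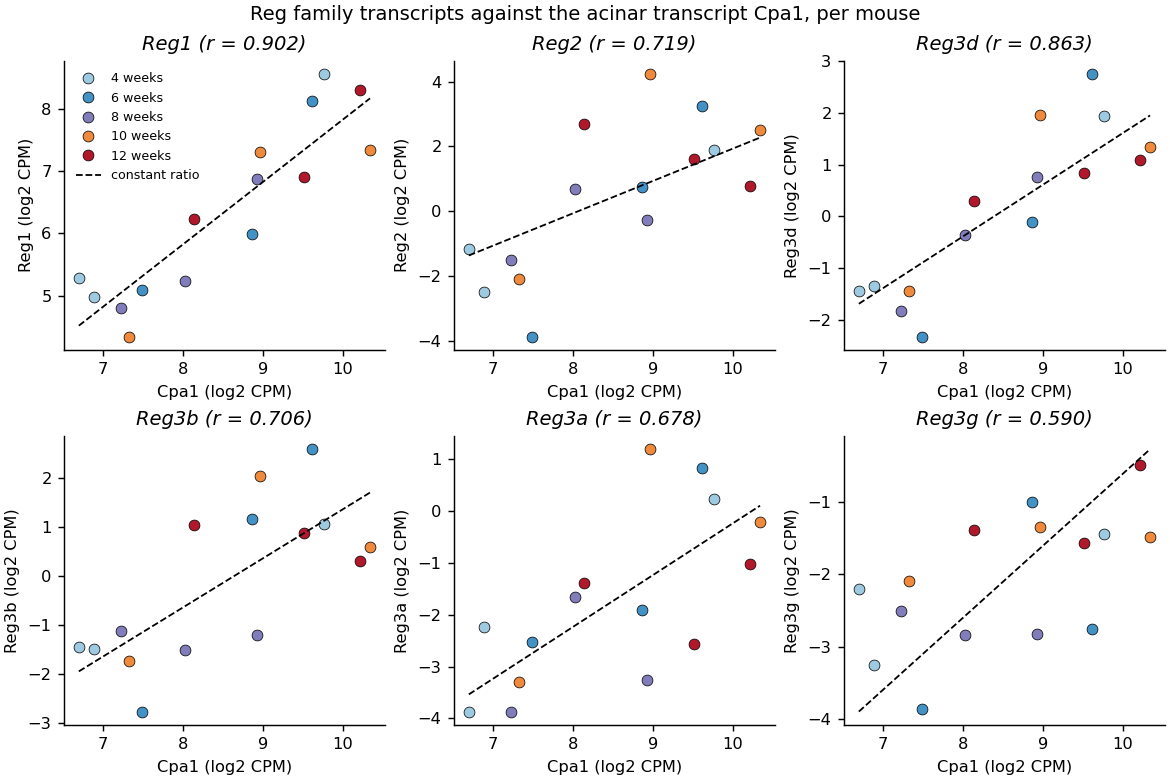
Level of each Reg gene (y, log2 CPM) against that of Cpa1 (x, log2 CPM), where a point is 1 mouse coloured by age, r is Pearson's over 15 mice and the dashed line marks a constant ratio. Reg1 (r = 0.902) and Reg3d (r = 0.863) lie nearest to their line. Reg2 lies farthest from its line, with an SD of the log2 ratio of 1.68. Reg3g has the lowest r (0.59), with an SD of 1.01.

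Although Reg1 followed Cpa1, it did so less tightly than the digestive enzymes. The SD over 15 mice of the log2 ratio to Cpa1 was 0.60 for Reg1. It was 0.08 to 0.26 for 18 of the 19 other acinar genes, among them Pnlip, Cela2a and Prss2 at 0.08 each, and 0.89 for the remaining one, the transcription factor Ptf1a, which had a median of 4 counts. Of the 30 genes with r of at least 0.8 with Cpa1 and a median of at least 500 counts, the 29 other than Reg1 had a median SD of 0.14, and 1 of them, the amylase gene Amy2a1, exceeded Reg1. Per 1000 counts of Cpa1 there were 124 counts of Reg1 in 10-week mouse 1 (exact Poisson-based 95% interval 120 to 128) and 432 in 4-week mouse 2 (421 to 443), the extremes. These intervals cover counting error only, and they do not overlap.

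The ratio of Reg2 varied the most, with an SD of 1.68 and a range of 6.62 on the log2 scale. Per 1000 counts of Cpa1, Reg2 was at 37.2 counts in 10-week mouse 2 (95% interval 34.6 to 40.1), 22.6 in 12-week mouse 3 (19.6 to 26) and 12 in 6-week mouse 1 (10.6 to 13.7). In the other 12 mice it was at most 5.88. In 6-week mouse 2 it was 0, with an upper bound of 0.541 per 1000, although that mouse had 6820 counts of Cpa1 and 1297 of Reg1. In 4-week mouse 2, which had more Cpa1 (20253 counts) than 10-week mouse 2 (19974 counts), Reg2 was at 4.25 per 1000.

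For the other members the SD of the log2 ratio was 0.80 for Reg3d, 1.13 for Reg3b, 1.01 for Reg3g and 1.21 for Reg3a. Low counts spread a ratio too. Rbpjl, an acinar transcription factor with a median of 53 counts, had an SD of 0.26, whereas Reg2, Reg3d and Reg3b, with medians of 43, 37 and 36 counts, had 3 or more times that SD. Reg3a and Reg3g, with medians of 5 counts each, were at the level of Ptf1a, so that for them the spread cannot be told apart from counting error by this comparison. A chi-square of a gene's counts against those of Cpa1 over the mice was taken per degree of freedom, where 1 is what counting error alone gives. It was 489 for Reg1, 213 for Reg2, 36.2 for Reg3b, 24.8 for Reg3d and 22.2 for Reg3a, but 3.25 for Reg3g. Among the acinar genes it was 1.41 for Rbpjl and 2.94 for Ptf1a. For the others, which had higher counts, it ran from 13.2 for Ctrc to 64.2 for Cela1, apart from Amy2a5 at 288. Values above 1 were thus not particular to Reg genes.

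**Figure D3:**
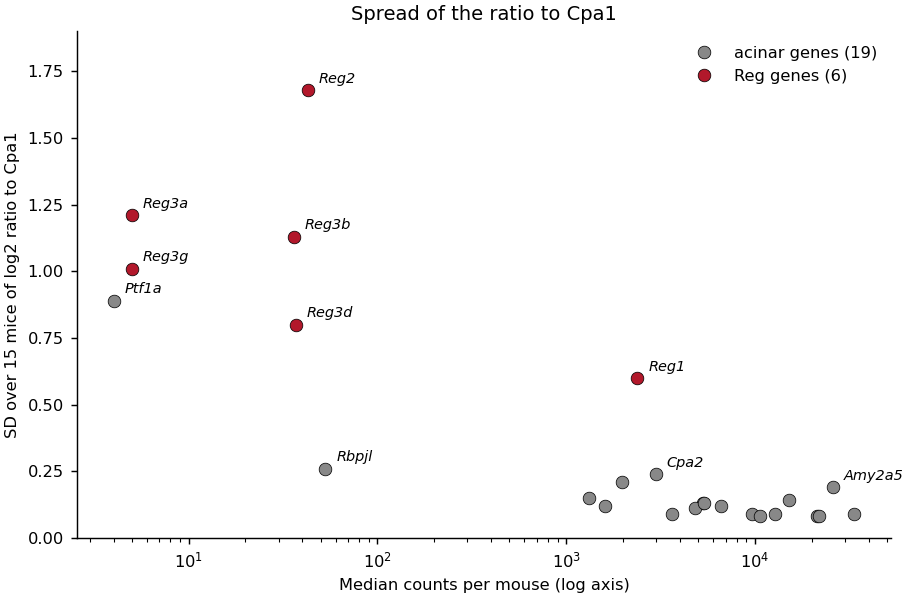
SD over 15 mice of the log2 ratio to Cpa1 (y) against the median counts per mouse (x, log axis) for the 6 Reg genes and 19 other acinar genes. Reg2 (1.68), Reg3b (1.13) and Reg3d (0.80) lie above Rbpjl (0.26) at like counts, and Reg1 (0.60) lies above the enzymes at 0.08 to 0.24, whereas Reg3a and Reg3g lie near Ptf1a (0.89).

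The deviations of the ratio were shared by several members in the same mouse. In 10-week mouse 2 all 6 members were above their mean ratio, from 0.29 for Reg3g to 3.33 for Reg2 on the log2 scale. In 6-week mouse 1 the 5 members other than Reg3g were above it, with Reg2 at 1.71 and Reg3b at 1.61, while Reg3g was at -1.77. In 12-week mouse 3 all 6 were above it, with Reg2 at 2.61 and Reg3b at 1.53. In 6-week mouse 2 Reg2 was at -3.29, Reg3b at -1.61, Reg3d at -1.42 and Reg3g at -0.76, but Reg1 was at -0.21 and Reg3a at 0.22, so the members did not all move together there.

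After the Cpa1 level was subtracted, Reg2 correlated with Reg3d (r = 0.789 over 15 mice) and Reg3b (r = 0.766), and Reg1 with Reg3d (r = 0.652). These values have the Cpa1 level in common, which alone can give a correlation, and they are given as a description. The pairs of Reg3g with the others ran from -0.109 with Reg3d to 0.342 with Reg3b, although they have the same Cpa1 values in common.

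**Figure D4:**
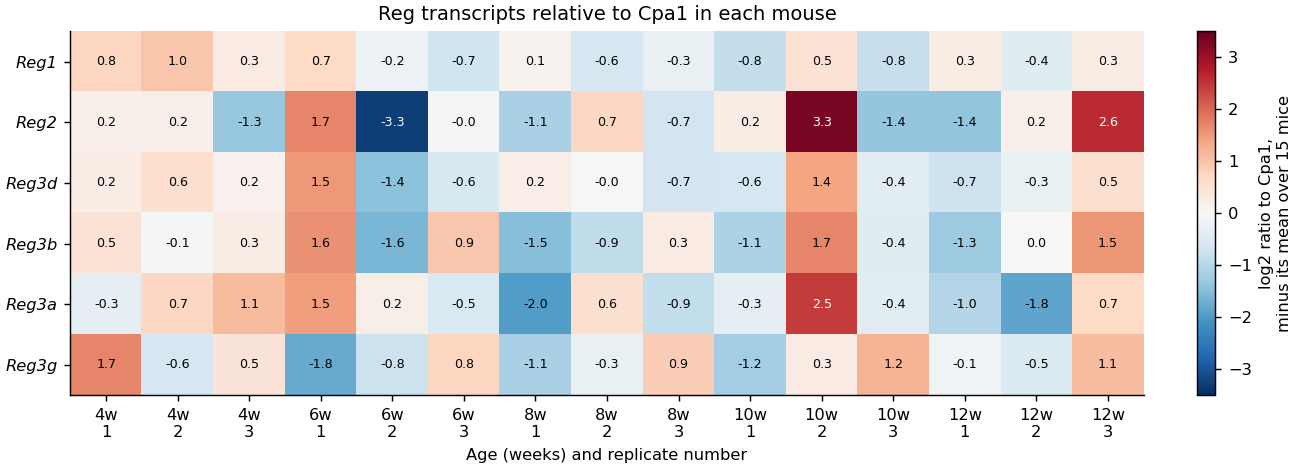
Log2 ratio of each Reg gene to Cpa1 in each mouse, minus the mean of that gene over 15 mice, with the value printed in each cell (red above, blue below the mean). The column of 10-week mouse 2 is above the mean in all 6 rows, with Reg2 at 3.33, and that of 6-week mouse 2 holds the lowest cell, Reg2 at -3.29.

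The ratio to Cpa1 was then compared between ages. For Reg1 the mean was 358 ± 83 counts per 1000 of Cpa1 at 4 weeks, 228 ± 115 at 6 weeks and 190 ± 47.5 at 8 weeks (SD, n = 3 each). It was 188 ± 109 at 10 weeks and 231 ± 58.4 at 12 weeks (SD, n = 3 each). On the log2 scale the ratio was 0.64 lower at 12 than at 4 weeks, a difference of -0.64 with an exact permutation p = 0.1, which is the smallest that 3 mice against 3 allow. For the other members that difference ran from -1.22 for Reg3a (exact permutation p = 0.2) to 0.77 for Reg2 (exact permutation p = 0.9). With 6 mice on each side, 10 and 12 against 4 and 6 weeks, the difference was -0.47 for Reg1 (exact permutation p = 0.219) and 1.03 for Reg2 (exact permutation p = 0.34). The other 4 had an exact permutation p from 0.483 for Reg3a to 0.872 for Reg3d. None of the 6 comparisons with 6 mice on each side passed 0.05 before adjustment, and those of 3 against 3 could not have done so.

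In the edgeR fit with the mean log2 CPM of the 20 acinar genes as a covariate, 0 of 6 members were called at 12 against 4 weeks, where 45.9% of all genes were. The standard error of the Reg1 change went from 1.08 to 0.432 and that of Cpa1, itself one of the 20, from 0.923 to 0.0646. The standard error of Reg2 hardly moved, from 1.55 to 1.47. The log2 change turned from 0.20 to -0.70 for Reg1 (edgeR adjusted p = 0.202) and from 0.19 to -0.51 for Reg3d (edgeR adjusted p = 0.633), neither of which was called.

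**Figure D5:**
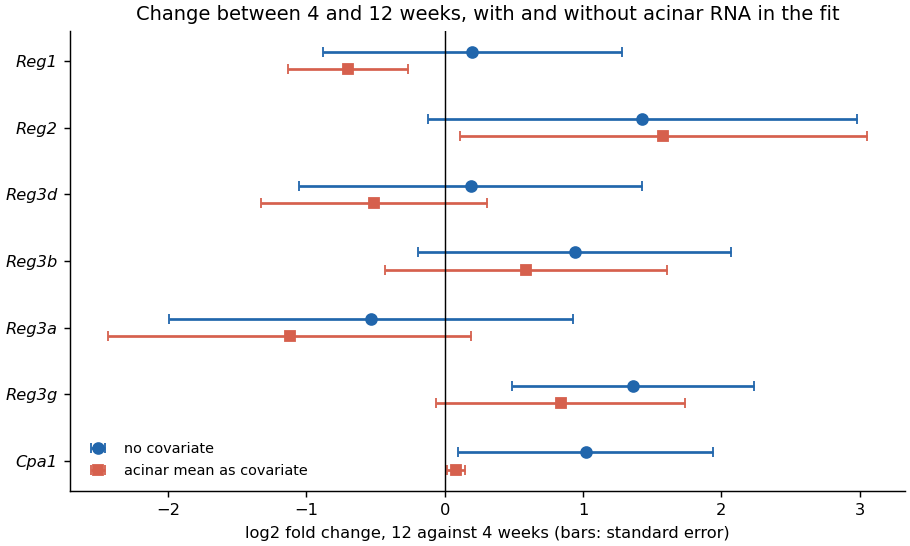
Log2 fold change of 12 against 4 weeks (x) of the 6 Reg genes and Cpa1 in the edgeR fit without a covariate (blue circles) and with the acinar mean as a covariate (red squares), where bars are standard errors. The bar of Reg1 shortens from 1.08 to 0.432 and that of Cpa1 from 0.923 to 0.0646, while that of Reg2 stays near its length (1.55 and 1.47).

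The genes whose log2 CPM was most like a member over the 15 mice, outside the family, were in part other secretory genes of acinar cells. For Reg1 they were Dmbt1 (r = 0.95), Cuzd1 (r = 0.938) and Tff2 (r = 0.933), and for Reg3d the same 3, Dmbt1 at 0.904, Tff2 at 0.899 and Cuzd1 at 0.895. For Reg3a they were Aass (r = 0.771), Dmbt1 (0.765) and Itih4 (0.75). For Reg2 they were Tead4 (r = 0.836), B130024G19Rik (0.83) and Slc6a9 (0.807), and for Reg3b 4833411C07Rik (0.802), Arhgef15 (0.786) and Erp27 (0.769). In this order of 16548 genes Cpa1 stood between 26 for Reg1 and 50 for Reg2. For Reg3g it stood at 2382, behind Gjb2 (r = 0.898), Ajuba (0.859) and Pls3 (0.845). Reg3g was also the member with the highest median r with the leukocyte genes, 0.585, against 0.368 for Reg2 and 0.041 for Reg1. The leukocyte genes rose with age, and once age means were subtracted the r of the Reg3g ratio with the mean of the leukocyte genes was 0.566 (exact permutation p = 0.0858), while for the other 5 members it lay between -0.306 and 0.202.

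Genes of cytokine pathways known to act upstream of Reg transcription, mainly that of STAT3, were counted from lists. Of the 5 genes tested on the list of 7 cytokines, 3 rose and 1 fell between 4 and 12 weeks (edgeR adjusted p under 0.05). Over all genes, 26.3% rose and 27.2% fell. Osm, which encodes oncostatin M, rose from 2 to 9 counts at 4 weeks to 55 to 99 at 12 weeks, a log2 change of 3.39 (SE 0.581, edgeR adjusted p = 0.000649). Il10 rose (log2 change 2.77, edgeR adjusted p = 0.0443) and Il11 fell (log2 change -1.63, edgeR adjusted p = 0.00404). Il6 had 0 to 15 counts and did not pass at 12 against 4 weeks (log2 change 1.10, edgeR adjusted p = 0.262), but at 10 and 12 against 4 and 6 weeks it rose (log2 change 1.97, SE 0.595, edgeR adjusted p = 0.0112). In that comparison 4 of the 5 cytokine genes tested rose and 1 fell, where 63.8% of all genes were called. Il22, the cytokine best known for switching on Reg3 genes, had 0 to 4 counts per mouse and Il17a had 0 in every mouse, and neither passed the filter on low counts.

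Of 9 receptor genes, 5 rose and 1 fell between 4 and 12 weeks (26.3% and 27.2% of all genes), with a median log2 change of 0.98. Those with the largest changes were the oncostatin M receptor Osmr (log2 change 1.86, edgeR adjusted p = 0.000569), Il11ra1 (1.84, edgeR adjusted p = 0.000369) and Il10rb (1.06, edgeR adjusted p = 0.000415). Of 10 genes for STAT3, its kinases and its targets, 10 rose (26.3% of all genes), with a median log2 change of 1.46. Socs3, the feedback inhibitor of this pathway, rose from 15.4 ± 3.93 to 59.2 ± 17.9 CPM (SD, n = 3 each, edgeR adjusted p = 0.000591). Bcl3 (log2 change 2.84, edgeR adjusted p = 0.000872) and Cebpd (1.89, edgeR adjusted p = 0.000432) rose too. Leukocytes also transcribe these genes, and the 21 leukocyte genes all rose over the same ages (median log2 change 4.66), and their part in these values was not tested.

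Of the genes of the acute-phase and antimicrobial response, to which Reg3 proteins belong as well, 10 on a list of 16 were tested. Of these, 7 rose and 1 fell between 4 and 12 weeks (26.3% and 27.2% of all genes), with a median log2 change of 1.85. The complement gene C3 rose from 398 to 2562 counts at 4 weeks to 25333 to 37084 at 12 weeks (log2 change 4.50, edgeR adjusted p = 0.000822). Fgg, a fibrinogen chain, rose by a log2 change of 2.45 (edgeR adjusted p = 0.00438) on 1 to 20 counts per mouse. Pigr, the epithelial receptor for polymeric immunoglobulin, rose by 3.53 (edgeR adjusted p = 0.00542), with 7467 of its counts in 12-week mouse 1, the mouse with the most intestinal transcripts, against 728 and 1486 in the other 12-week mice. Lcn2, which encodes lipocalin 2, did not pass (log2 change 0.75, edgeR adjusted p = 0.271).

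Among 8 genes linked to acinar injury, 3 rose and 2 fell between 4 and 12 weeks, as did 26.3% and 27.2% of all genes. Nupr1, a stress gene first described in pancreatitis, rose from 6 ± 2.71 to 29.7 ± 8.34 CPM (SD, n = 3 each, edgeR adjusted p = 0.00149). Clu, which encodes clusterin, rose by a log2 change of 1.30 (edgeR adjusted p = 0.000168) and the keratin gene Krt8 changed by -0.56 (edgeR adjusted p = 0.00721). Of the 7 duct genes, 3 rose and 2 fell (26.3% and 27.2% of all genes), the former being Krt19 (1.74), Onecut1 (1.31) and Muc1 (1.23). Of the 2 intestinal genes that passed the filter on low counts, Olfm4 was called, at -0.50. Olfm4 had 363 to 930 counts in every mouse, also where Fabp2, Alpi and Sis were near 0, so its fall is not read as one of intestinal RNA. Of the 12 endocrine genes, 11 fell (27.2% of all genes), by a median log2 change of -0.91 over the list.

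Of the genes related to the family, Extl3, which encodes a proposed receptor of Reg proteins, was expressed in every mouse, at 62.4 ± 3.62 CPM at 4 weeks and 75.8 ± 5.06 CPM at 12 weeks (SD, n = 3 each). The log2 change of Extl3 was 0.28 (SE 0.0724, edgeR adjusted p = 0.00613) and the mice of both ages did not overlap, as for 30.3% of all genes. Its standard error was thus far below that of any member. Reg4, the remaining member of the family in the mouse, lies on chromosome 3 and is known from the intestinal epithelium. Reg4 had 27 counts in 6-week mouse 2, 95 in 12-week mouse 1, 1 in 12-week mouse 3 and 0 in the other 12 mice, so that it was found in the mice with intestinal transcripts. In these mice Reg3b and Reg3g, which the intestine also makes, had 3 and 0 counts (6-week mouse 2) and 36 and 20 counts (12-week mouse 1). The 20 counts of Reg3g in 12-week mouse 1 were its highest value. Without these 2 mice, none of the members was called in any of the edgeR comparisons, but Reg3g then no longer passed the filter on low counts and was not among those tested.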

How the data were processed

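Polyadenylated RNA of islets from 15 mice was sequenced as read pairs. According to the methods of the study, the authors trimmed, aligned and counted reads in CLC Genomics Workbench 23.0 with its default settings, and the labels give the build as mm10. The deposited table gives raw counts, whole and without normalization by the authors, and the deposited TPM values are the authors' counts scaled for gene length and library. TPM served only to rank members by level. The 30 per-sample columns of RPKM and CPM were not used, and the authors' own fold changes and p-values, which the table also holds, were not used. Total counts ran from 25407492 to 41616275 per mouse, and 3 counts were taken as the floor.

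Genes were kept by filterByExpr (16554 of 48709, all 6 members among them), scaled by TMM and fitted in edgeR 4.0.16 (R 4.3.3) with glmQLFit, 1 mean per age and no covariate. Contrasts were tested by glmQLFTest and adjusted by the Benjamini-Hochberg method over all genes tested, with a threshold of 0.05. Scripts were tested on simulated data. Log2 CPM and the log2 ratio to Cpa1 used a prior count of 2. Ratios were compared by two-sided exact permutation tests over mice, and correlations used 100000 permutations or, within ages, all 7776. Intervals of ratios are exact 95% ones and cover counting error only. P-values measure the spread between mice of 1 series.

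The alternatives were DESeq2 1.42.0 and its size factors, library totals, no filter, the edgeR exact test of the 2 ages alone, a replicate block, the acinar mean as a covariate, another prior count (0.5), the other 19 acinar genes as the reference, and leaving out each mouse. A leukocyte covariate and the removal of 2 mice with intestinal transcripts were added after the data were seen. Named genes are the members, Cpa1, Reg4, Extl3, up to 3 genes per list with the largest change at 12 against 4 weeks among those with a joint adjusted p under 0.05, defining markers where a result turns on them, and the 3 genes most like each member. Genes named beyond this rule (Il6, Il22, Il17a, Lcn2, Amy2a1, Pnlip, Cela2a, Prss2, Rbpjl, Ptf1a, Fabp2, Alpi and Sis) were chosen after their values were seen. Members and lists were chosen with earlier results of these data known. The leukocyte gene Itgam, 1 gene of the lists, was not analysed here. Lists are described by counts and medians, with no test. Promoter windows are from RefSeq, in which all 6 members matched, and gene positions are those of the deposited table.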

Additional observations from a re-analysis of the deposited data

How the results depend on the processing

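Over 713 alternative values, 651 kept their side of the threshold and, where they have a direction, that direction. A further 58 changed direction, none of which was called in either setting. Counts and p-values of the joint test have no direction. Apart from the correlations nothing was called in the main setting, so an unchanged call says little about stability. Leaving out 6-week mouse 3 moved the count of members called from 0 to 1 (Reg3g) in the joint test of the ages and in 10 and 12 against 4 and 6 weeks, so these counts ran from 0 to 1 over the mice left out, and in the other comparisons tested with edgeR from 0 to 0. The ratios to Cpa1 at 12 against 4 weeks could not pass 0.05 with 3 mice against 3 or fewer, so their count of 0 says nothing about stability. Reg3g did not pass the filter wherever 12-week mouse 1 was left out, nor Reg3a or Reg3g in the edgeR exact test of some pairs of ages, and they have no value there. At 10 and 12 against 4 and 6 weeks Reg3d, 0.00 in the report, was 0.05 with DESeq2's size factors, 0.23 with library totals, 0.03 with DESeq2 and 4.04 with the leukocyte covariate. With that covariate, which rises with age, Reg3g was at -1.84 (12 against 4 weeks) and -1.82 (10 and 12 against 4 and 6) and Reg3a at 2.42 (12 against 4). With the acinar covariate Reg1 was at -0.70 and -0.52 in these comparisons, Reg3d at -0.51 (12 against 4) and Reg3a at -0.23 (10 and 12 against 4 and 6). Without the 2 mice with intestinal transcripts Reg1 was at -0.60 in both, Reg3d at -0.01 (12 against 4) and Reg3a at -0.41 (10 and 12 against 4 and 6), and the ratio of Reg3b to Cpa1 at 0.54 (12 against 4), or at 0.00 with the other 19 acinar genes as the reference. The causes were not tested.

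Leaving out single mice, the log2 change of 12 against 4 weeks ran from -0.60 to 2.27 for Reg1, 0.76 to 3.91 for Reg2, -1.14 to 1.87 for Reg3a, 0.52 to 2.46 for Reg3b, -0.31 to 2.39 for Reg3d and 0.87 to 2.10 for Reg3g, with the highest value of each without 4-week mouse 2. That of 10 and 12 against 4 and 6 weeks ran from -0.38 to 1.06 for Reg1, 0.55 to 2.54 for Reg2, -0.60 to 1.26 for Reg3a, -0.37 to 0.99 for Reg3b, -0.35 to 1.19 for Reg3d and 0.69 to 2.09 for Reg3g. The log2 ratio to Cpa1 ran from -0.30 to 1.69 for Reg2, -0.87 to 0.54 for Reg3b and -0.92 to 0.24 for Reg3g at 12 against 4 weeks, and from -0.58 to 0.07 for Reg3b, -0.40 to 0.19 for Reg3d and -0.19 to 0.51 for Reg3g at 10 and 12 against 4 and 6 weeks.

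Mice with the same replicate number did not deviate together (mean correlation of their deviations -0.0795, range -0.643 to 0.509, 30 pairs), so the numbers do not pair the mice. With the replicate block 0 of 6 members were called in every comparison, and the changes that turned direction were Reg3a at 0.01 (12 against 4 weeks), Reg1 at -0.07 and Reg3d at 0.10 (10 and 12 against 4 and 6 weeks). Depth limited Reg3a and Reg3g, which had medians of 5 counts per mouse.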
